A study of Homo sapiens with 16 samples.

Results

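Cadherins and protocadherins, the calcium-dependent adhesion molecules that hold neighbouring cells together, were followed in 2 melanoma cell lines treated with corin. The members were all protein-coding genes whose GENCODE symbol was CDH followed by a number or began with PCDH. The annotation held 89 such genes, and 88 of them were among the 34228 genes of the count table (CDH16 was not analysed here). They comprised 18 classical cadherins (5 of type I and 13 of type II), 4 other cadherins, 13 non-clustered protocadherins (5 delta1, 5 delta2 and 3 others) and 53 clustered protocadherins (15 alpha, 16 beta and 22 gamma). Both lines, 451Lu-R and 1205Lu-R, carry acquired resistance to BRAF inhibitors and were cultured for 24 hours with 2.5 μM corin or with the vehicle DMSO. Corin is a hybrid molecule that inhibits the LSD1 and HDAC enzymes of the CoREST repressor complex. Each of the 4 groups (451Lu-R DMSO, 451Lu-R corin, 1205Lu-R DMSO and 1205Lu-R corin) had 2 libraries, and each line stands for a single source of cells. The 8 samples with the BRAF inhibitor PLX4032 (5 μM) were not analysed here.

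Classical cadherins bind the same cadherin on the next cell and are anchored to actin through catenins. In skin, E-cadherin (CDH1) tethers melanocytes to keratinocytes, and melanoma cells commonly carry N-cadherin (CDH2) in its place. Clustered protocadherins lie in tandem arrays on chromosome 5. In the alpha and gamma arrays, each variable first exon has its own promoter and is spliced to constant exons shared by the array, and CTCF and cohesin help to choose which promoters fire. The non-clustered delta protocadherins are single genes best known for guiding axons and sorting cells in the embryo. The alpha array spans chr5:140786136-141012347, the beta array chr5:141051374-141249365 and the gamma array chr5:141330514-141512977 (GRCh38, GENCODE 44).

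The 250 bases before the annotated start are shown for 5 members that stand for the patterns described here. CDH2 and the delta2 gene PCDH17 rose in both lines, the alpha gene PCDHAC2 rose by different amounts in the lines, PCDHGA6 moved in opposite directions in the lines, and PCDHGC3 was the most abundant member. The sequences are RefSeq's (GRCh38.p14), 5′ to 3′ on the gene's strand. Capitals mark CGCT and its reverse complement AGCG, the core letters of the element conserved among clustered protocadherin promoters.
CDH2, chr18:28177131-28177380, minus strand: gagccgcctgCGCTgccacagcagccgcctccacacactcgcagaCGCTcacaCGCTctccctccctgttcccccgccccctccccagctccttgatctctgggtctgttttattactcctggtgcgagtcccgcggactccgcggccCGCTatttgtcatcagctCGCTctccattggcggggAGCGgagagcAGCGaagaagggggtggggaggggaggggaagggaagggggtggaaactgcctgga
PCDH17, chr13:57631494-57631743, plus strand: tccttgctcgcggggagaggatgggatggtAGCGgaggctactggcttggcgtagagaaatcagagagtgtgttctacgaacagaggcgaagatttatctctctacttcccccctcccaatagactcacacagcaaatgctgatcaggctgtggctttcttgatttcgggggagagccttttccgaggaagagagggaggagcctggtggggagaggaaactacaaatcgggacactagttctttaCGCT
PCDHAC2, chr5:140966226-140966475, plus strand: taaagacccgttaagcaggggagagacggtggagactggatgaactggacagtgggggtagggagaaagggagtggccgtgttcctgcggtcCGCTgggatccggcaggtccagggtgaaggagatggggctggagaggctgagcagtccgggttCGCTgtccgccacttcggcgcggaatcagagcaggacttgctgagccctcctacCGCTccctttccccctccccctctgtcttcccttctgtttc
PCDHGA6, chr5:141373641-141373890, plus strand: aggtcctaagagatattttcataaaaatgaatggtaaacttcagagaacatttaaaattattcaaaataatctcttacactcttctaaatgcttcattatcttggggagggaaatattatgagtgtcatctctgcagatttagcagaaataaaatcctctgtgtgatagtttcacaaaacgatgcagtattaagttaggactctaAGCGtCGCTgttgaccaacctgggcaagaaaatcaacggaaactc
PCDHGC3, chr5:141475716-141475965, plus strand: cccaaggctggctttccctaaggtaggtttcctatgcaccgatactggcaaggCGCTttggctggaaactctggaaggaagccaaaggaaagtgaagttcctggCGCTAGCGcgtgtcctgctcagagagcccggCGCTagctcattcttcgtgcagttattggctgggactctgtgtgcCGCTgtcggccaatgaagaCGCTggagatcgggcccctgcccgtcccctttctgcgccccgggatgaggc
Of the 88 members, 70 had an entry in the promoter table. CGCT on either strand was present in the window of 67 of these 70 (95.7%), including 20 of 20 gamma genes, 13 of 14 beta genes and 12 of 13 alpha genes, but also 10 of 10 classical cadherins. Over all 27305 genes of the promoter table, 64.3% of windows held it. The clustered windows were poorer in G and C than usual, with medians of 34.8% (alpha), 39.6% (beta) and 40.2% (gamma) against 58.0% over all genes. CAGGTG on either strand (CACCTG on the other), the E-box bound by SNAIL and ZEB repressors, was in 7 of 70 member windows (10.0%) and in 17.5% of all windows, and none of the 5 windows shown held it. CDH1 had no entry.

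Libraries totalled between 9516687 and 11797788 estimated counts, and members made up 632 to 769 CPM (counts scaled to a common library total) in 451Lu-R and 1275 to 1285 CPM in 1205Lu-R. None of the 8 libraries stood apart from its replicate (the chi-square over its degrees of freedom lay between 1.343 and 1.40). Melanocyte lineage markers (10 genes) summed to 13840 and 13920 CPM in 451Lu-R with DMSO but only 9.37 and 8.945 CPM in 1205Lu-R with DMSO, where TYR, TYRP1 and SOX10 had no count, and TYR and SOX10 had none there with corin. The 5 neuron markers summed to 10.03 and 10.89 CPM with DMSO and 290.2 and 291.5 CPM with corin in 451Lu-R, and to 8.964 and 10.4 CPM and then 153.1 and 154.5 CPM in 1205Lu-R, with STMN2 at 0 in both DMSO groups. The 4 endothelial markers in the table went from 11.74 and 15.46 to 77.91 and 81.67 CPM and from 11.47 and 11.97 to 47.53 and 53.69 CPM, with PECAM1 at 0 in 451Lu-R. In 1205Lu-R, PECAM1 had 9.08 and 9.81 CPM with DMSO and 8.62 and 6.06 CPM with corin, unlike VWF, TIE1 and KDR, which were higher with corin. The 5 keratinocyte markers in the table summed to between 20.18 and 32.59 CPM, mostly KRT10, which in 451Lu-R had 20.7 and 20.9 CPM with DMSO and 15.5 and 12.2 CPM with corin. KRT14 had 3 and 4 counts there with DMSO against 56 and 44, and TP63 none against 38 and 26. Leukocyte markers summed to at most 6.573 CPM in any library. Any part of these marker shifts in the results on members was not tested. Each library came from a single cultured line, and in bulk RNA more cells that express a marker and more RNA per cell cannot be told apart.

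More members were detectable after corin, as were more genes of the whole table. In 451Lu-R, 30 of 88 members averaged at least 1 CPM with DMSO and 52 did so with corin, while the number without a single count in either library went from 12 to 1. In 1205Lu-R, 25 members averaged at least 1 CPM with DMSO and 41 with corin, and the number without a count went from 22 to 9. The classical cadherins went from 5 to 11 of 18 at that level in 451Lu-R and from 2 to 6 in 1205Lu-R. The clustered protocadherins went from 20 to 29 of 53 and from 18 to 25. Over all 34228 genes, the share averaging at least 1 CPM went from 38.2% to 41.6% in 451Lu-R and from 37.7% to 42.0% in 1205Lu-R, and the share without a count from 33.4% to 24.6% and from 34.5% to 25.0%. The difference between members and other genes was not tested.

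Corin was compared with DMSO in each line over the whole table by edgeR's quasi-likelihood test, and a gene is said to have risen or fallen at a Benjamini-Hochberg adjusted p under 0.05. The labels do not say whether the replicate libraries came from separate cultures, so these p-values measure only the spread between these libraries, which may be technical. In 451Lu-R, 52 members had enough counts to be tested. Of these, 34 rose and 9 fell, where 41.3% of all 14530 genes tested rose and 38.6% fell. A rise of at least 4-fold with an adjusted p under 0.001 was met by 20 members, against 12.4% of all genes, and no member fell that far. Among the 52, however, 25 reached the filter's level of 0.957 CPM only in the corin libraries and so could hardly have come out lower. Of the 26 members at that level in all 4 libraries, 12 rose and 8 fell, against 36.6% and 42.9% of all genes of that kind.

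In 1205Lu-R, 43 members were tested, of which 19 rose and 12 fell, where 40.4% of 14563 genes rose and 37.8% fell. The stricter call of 4-fold was met by 13 members (11.3% of all genes). Here 16 of the 43 reached the filter's level of 0.922 CPM only with corin. Of the 23 at that level in all 4 libraries, 6 rose and 10 fell, against 35.1% and 42.9% of all such genes. Members transcribed in all 4 libraries therefore moved both ways in each line. The median log2 fold change over all genes was 0.03 in both lines.

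The classes differed in their counts. Among classical cadherins tested, 8 of 10 rose and 1 fell in 451Lu-R, and 5 of 6 rose and 1 fell in 1205Lu-R. Among non-clustered protocadherins, 10 of 11 rose and 1 fell in 451Lu-R, and 8 of 9 rose in 1205Lu-R with none falling. The clustered protocadherins were split, with 15 of 30 rising and 7 falling in 451Lu-R, and 6 of 27 rising and 10 falling in 1205Lu-R. At the filter's level in all 4 libraries there were 5 classical cadherins (3 rose, 1 fell), 5 non-clustered protocadherins (4 rose, 1 fell) and 16 clustered protocadherins (5 rose, 6 fell) in 451Lu-R. In 1205Lu-R these were 2 (1 rose, 1 fell), 4 (3 rose) and 16 (2 rose, 8 fell). These shares are descriptions, and the difference between classes was not tested.

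**Figure D1:**
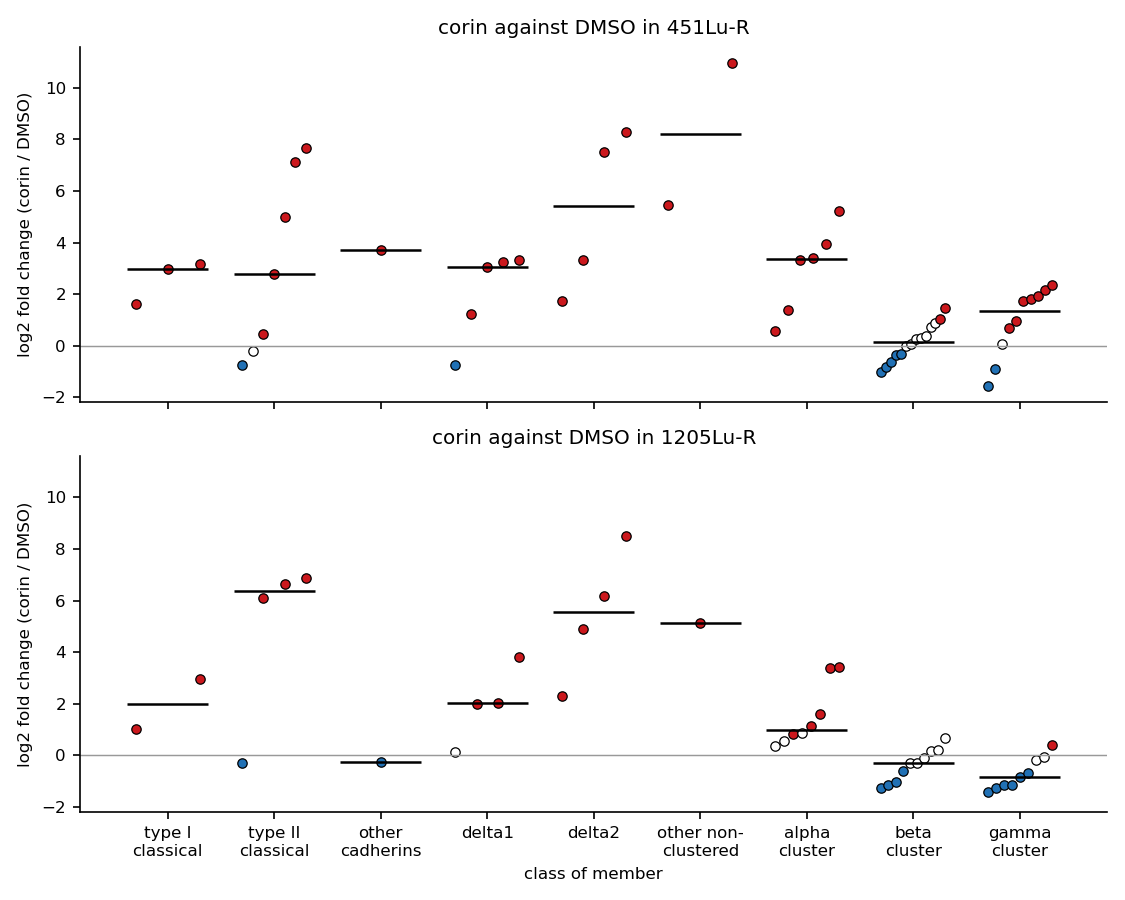
Log2 fold change of corin over DMSO (y axis) for each member tested, by class (x axis), with 451Lu-R in the upper and 1205Lu-R in the lower panel. Red points rose and blue points fell at an adjusted p under 0.05, open points did neither, and bars are class medians. Classical and delta protocadherin genes lie mostly above 0, alpha genes are all above 0, and beta and gamma genes lie on both sides. Values above about 5 belong to genes at or near 0 counts with DMSO and depend on the prior count.

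N-cadherin (CDH2) was the leading classical cadherin in every library and rose in both lines. Its level was 40.2 and 46.0 CPM with DMSO and 120 and 126 CPM with corin in 451Lu-R, and 102 and 101 CPM with DMSO and 217 and 218 CPM with corin in 1205Lu-R. The corin libraries lay above the DMSO libraries of their line without overlap, and corin brought 451Lu-R past the level of untreated 1205Lu-R. The log2 fold change was 1.62 (SE 0.06, adjusted p = 1.84e-15) in 451Lu-R and 1.03 (SE 0.04, adjusted p = 1.09e-16) in 1205Lu-R. The response was smaller in 1205Lu-R by 0.63 on the log2 scale (interaction -0.63, SE 0.07, adjusted p = 1.59e-07). A gene on the opposite strand overlaps exons of CDH2, and whether counting used the strand is not given in the sources used here.

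E-cadherin (CDH1) was not detectable above a few reads. In 451Lu-R the DMSO libraries held 4 and 1 counts of it and the corin libraries 8 and 2. In 1205Lu-R no read was counted under DMSO and 1 and 3 were counted under corin, too few for a test in either line. P-cadherin (CDH3), its neighbour on the chromosome, was as low, at 7.1 and 2.4 counts under DMSO against 7.9 and 9.4 under corin in 451Lu-R. The same libraries of 1205Lu-R held 2.9 and 2 counts of CDH3 against 4.6 and 4.2. Neither epithelial cadherin passed the filter, so no statement on a change can be made at this depth.

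Other type I genes rose from low levels. R-cadherin (CDH4) went from 2.02 and 1.45 CPM to 14.8 and 14.5 CPM in 451Lu-R (log2 fold change 3.15, SE 0.19, adjusted p = 1e-11). It was too low for a test in 1205Lu-R, at 1 count in each DMSO library against 3 and 6 under corin. M-cadherin (CDH15), the cadherin of muscle precursors, rose in both lines, with 2.6 and 1.0 counts against 20.3 and 13.0 in 451Lu-R (2.98, SE 0.59) and 9 and 5 against 47.0 and 62.6 in 1205Lu-R (2.95, SE 0.34). Its interaction estimate was -0.07 (SE 0.48, adjusted p = 0.951).

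Several type II cadherins appeared where no or hardly any transcript had been counted. CDH6, a cadherin of kidney and neural crest, had 1 and 0 counts with DMSO in each line. With corin it had 21 and 18 counts in 451Lu-R, a ratio in CPM of 36.8 (exact 95% interval 6.23 to 1490, for counting error only), and 40.2 and 45.8 counts in 1205Lu-R, a ratio of 90.4 (15.8 to 3612). CDH22 had no counts with DMSO in either line. It had 29 and 22 counts with corin in 451Lu-R and 18 and 11 counts in 1205Lu-R, at least 16.0-fold and 10.2-fold higher against a floor of 3 counts over the group. CDH10 also started from 0 in both lines and had 16 and 18 counts with corin in 451Lu-R (at least 10.7-fold higher) but 0 and 1 in 1205Lu-R. The mesenchymal cadherin CDH11 had 0 counts in all DMSO libraries, 2 and 6 with corin in 451Lu-R, and 11 and 14 counts in 1205Lu-R, at least 8.76-fold higher there.

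CDH19 and CDH7, cadherins of the neural crest and its Schwann cell lineage, were expressed in 451Lu-R alone of these lines. CDH19 had 18.1 and 17.7 CPM with DMSO and 13.9 and 15.3 CPM with corin in 451Lu-R, a log2 difference of -0.20 (SE 0.11, adjusted p = 0.0978) that missed the threshold. In 1205Lu-R a single count was seen in 1 corin library and none in the others, and with DMSO its level was at least 129-fold lower than in 451Lu-R. CDH7 fell in 451Lu-R from 8.85 and 7.62 to 4.51 and 4.64 CPM (log2 fold change -0.76, SE 0.18, adjusted p = 0.000757). It had 1.6 and 0 counts in 1205Lu-R with DMSO and none with corin. CDH24, which was present in both lines, was higher with corin in 451Lu-R (5.14 and 5.59 against 7.20 and 6.60 CPM) and lower in 1205Lu-R (13.9 and 14.5 against 13.0 and 11.5 CPM). Neither call on CDH24 was made by DESeq2 (adjusted p = 0.207 and 0.270) or by edgeR with library size scaling (0.0675 and 0.119). They were also lost without the first library of either 451Lu-R group, and without the second of either 1205Lu-R group.

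T-cadherin (CDH13), which lacks the cytoplasmic tail and sits on a lipid anchor, was abundant in 1205Lu-R and nearly absent from 451Lu-R. With DMSO it had 2 and 2 counts in 451Lu-R and 2785 and 2604 counts in 1205Lu-R, a ratio in CPM of 1278 (95% counting interval 499 to 4691). With corin it rose in 451Lu-R to 35.6 and 20.0 counts, a ratio of 13.2 (4.88 to 50.2). In 1205Lu-R it fell slightly, from 252 and 245 CPM to 211 and 223 CPM (log2 fold change -0.26, SE 0.03, adjusted p = 4.85e-07). Even so, the corin-treated 451Lu-R libraries, at 3.01 and 2.0 CPM, remained far below either 1205Lu-R group. An antisense gene, CDH13-AS2, overlaps its exons. The other 3 members outside the classical group, CDH17, CDH23 and CDH26, were tested in neither line, and the highest count of any of them was 10 (CDH23 in 451Lu-R with corin).

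**Figure D2:**
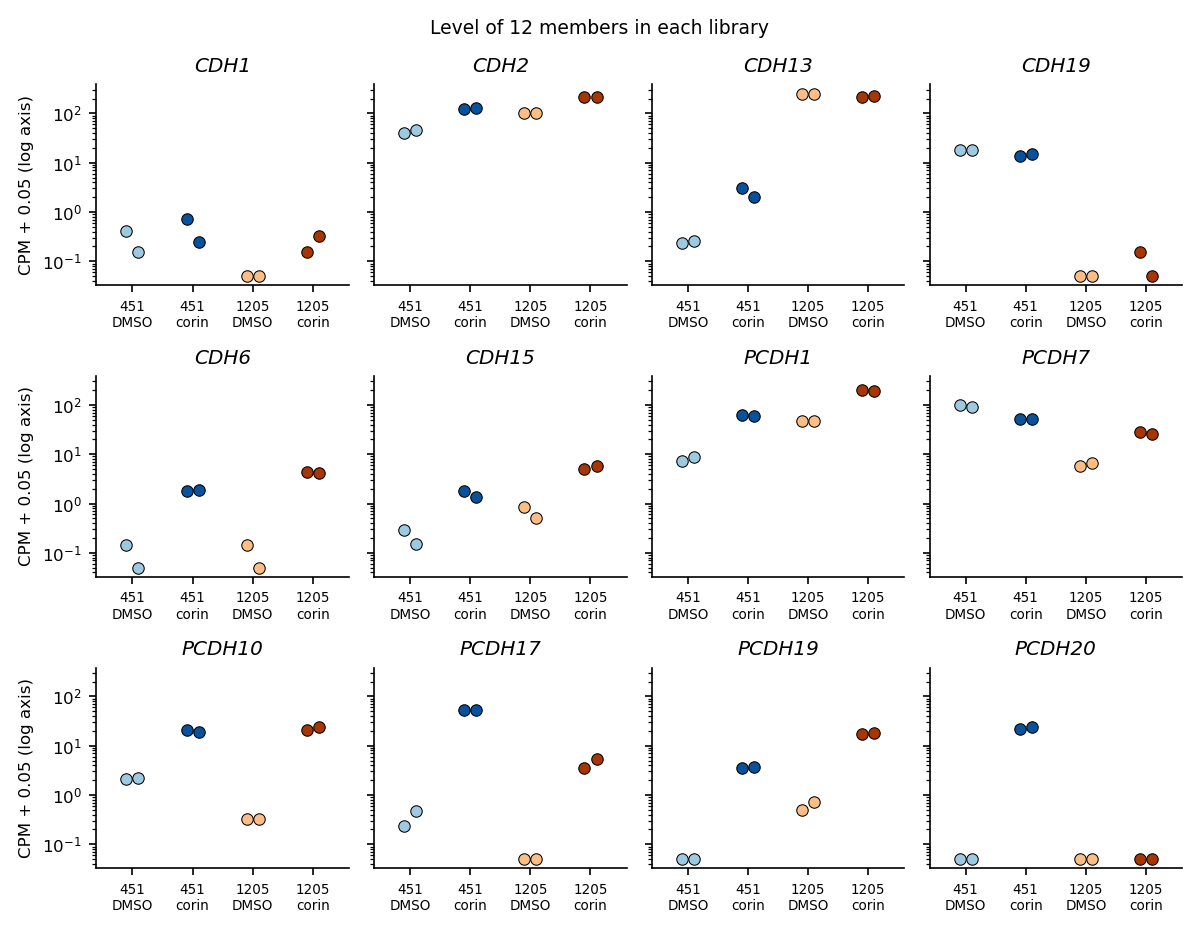
Level of 12 members in each of the 8 libraries, as CPM plus 0.05 on a log axis, with 1 point per library and the groups 451Lu-R DMSO, 451Lu-R corin, 1205Lu-R DMSO and 1205Lu-R corin from left to right. CDH2, PCDH1, PCDH10 and PCDH17 are higher with corin in both lines, PCDH7 moves in opposite directions, CDH13 is between 211 and 252 CPM in 1205Lu-R and at most 3.01 CPM in 451Lu-R, and PCDH20 appears in 451Lu-R with corin only.

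Most non-clustered protocadherins tested rose in each line. Among the delta2 genes, which recruit the actin-regulating WAVE complex through their tails, PCDH17 went from 2 and 4 counts with DMSO to 615 and 521 counts with corin in 451Lu-R (log2 fold change 7.52, SE 0.18, adjusted p = 3.88e-18). With so few DMSO counts this SE is too small. In 1205Lu-R PCDH17 went from 0 and 0 to 33 and 58 counts, at least 31.9-fold higher. PCDH10 went from 2.02 and 2.17 to 20.5 and 19.0 CPM in 451Lu-R (3.33, SE 0.17) and from 0.271 and 0.282 to 20.6 and 23.6 CPM in 1205Lu-R, so that the lines differed with DMSO (log2 difference -2.74, SE 0.45, adjusted p = 1.02e-05) and stood at similar levels with corin. Its response was larger in 1205Lu-R (interaction 2.82, SE 0.46, adjusted p = 2.58e-05).

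PCDH19, an X-linked epilepsy gene whose product pairs with N-cadherin, was without counts in untreated 451Lu-R and reached 41.8 and 36 counts under corin, at least 24.5-fold higher. In 1205Lu-R it went from 5 and 7 to 162 and 204 counts (4.90, SE 0.23, adjusted p = 2e-14). PCDH18 rose in both lines by less, from 2.02 and 2.79 to 6.61 and 8.30 CPM in 451Lu-R and from 2.26 and 1.41 to 7.99 and 11.1 CPM in 1205Lu-R. The fifth delta2 gene, PCDH8, had at most 6 counts in a library and was not tested. All 4 delta2 genes tested rose in both lines, as did 28.8% of the 13200 genes tested in both lines. However, PCDH17 and PCDH19 in both lines, and PCDH10 in 1205Lu-R, reached the filter's level only with corin. They could hardly have come out lower there.

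Of the delta1 genes, PCDH1, an adhesion gene of airway epithelium linked to asthma, went from 7.15 and 8.69 CPM to 61.5 and 60.9 CPM in 451Lu-R (log2 fold change 3.06, SE 0.09, adjusted p = 1.69e-16) and from 47.1 and 47.3 CPM to 204 and 192 CPM in 1205Lu-R (1.99, SE 0.05, adjusted p = 5.96e-20). Its response was smaller in 1205Lu-R (interaction -1.10, SE 0.12, adjusted p = 6.96e-08). PCDH9 went from 7.17 and 7.18 to 68.2 and 65.8 CPM in 451Lu-R (3.33, SE 0.09) and from 0.458 and 0.478 to 7.26 and 6.87 CPM in 1205Lu-R (3.82, SE 0.33). Its responses did not differ past the threshold (interaction 0.46, SE 0.36, adjusted p = 0.406). The X-linked PCDH11X shares near-identical sequence with PCDH11Y, so reads can be split between them, and although PCDH11X is in the counts above, neither is described further.

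PCDH7, a delta1 protocadherin of brain and heart, moved in opposite directions. In 451Lu-R it had 97.7 and 89.1 CPM with DMSO and fell to 52.6 and 52.2 CPM with corin (log2 fold change -0.74, SE 0.06, adjusted p = 3.46e-10). The 1205Lu-R libraries went the other way, from 5.78 and 6.59 CPM to 28.0 and 25.6 CPM (2.04, SE 0.12, adjusted p = 1.76e-12). The interaction was 2.74 (SE 0.13, adjusted p = 1.82e-13). The gap between the lines, 3.79 on the log2 scale with DMSO, was thereby smaller with corin, although the 451Lu-R libraries still lay above those of 1205Lu-R.

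PCDH20 had no counts in either DMSO library of 451Lu-R and 253 and 241 counts with corin, at least 155-fold higher. In 1205Lu-R it had 0 counts in all 4 libraries, so that edgeR could not determine the difference in response, while DESeq2 gave it an adjusted p of 0.000176. PCDH12, an endothelial protocadherin, rose in both lines from at most 1 count to 31 and 24 counts (451Lu-R) or 20 and 24 counts (1205Lu-R), while the endothelial CDH5 had at most 6 counts in any library. PCDH15 had at most 10 counts and was not tested.

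The clustered protocadherins were first taken as arrays, because reads from the constant exons of alpha and gamma genes are divided by the quantification software. The alpha total rose from 8.85 and 9.43 CPM to 28.7 and 29.6 CPM in 451Lu-R (log2 fold change 1.77, SE 0.10, adjusted p = 5.69e-12) and from 11 and 11.4 CPM to 21.8 and 23.8 CPM in 1205Lu-R (0.95, SE 0.11, adjusted p = 1.78e-07). The beta total fell from 72.9 and 75.4 CPM to 57.8 and 54.3 CPM in 451Lu-R (-0.30, SE 0.06, adjusted p = 9.43e-05) and from 78.7 and 76.8 CPM to 59.4 and 53.2 CPM in 1205Lu-R (-0.55, SE 0.06, adjusted p = 3.04e-08). The gamma total fell from 357 and 356 CPM to 204 and 210 CPM in 451Lu-R (-0.69, SE 0.03) and from 760 and 766 CPM to 456 and 446 CPM in 1205Lu-R (-0.84, SE 0.03). The alpha array thus rose and the beta and gamma arrays fell in both lines.

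As the software divided the shared reads, the gamma total was in effect a single gene, PCDHGC3, a C-type isoform that is expressed more widely than the others. It took between 94.5% and 95.9% of the gamma array with DMSO, and 81.1% and 81.5% of it in 451Lu-R with corin. PCDHGC3 fell from 341 and 337 CPM to 165 and 171 CPM in 451Lu-R (-0.91, SE 0.03, adjusted p = 3.42e-16) and from 729 and 730 CPM to 430 and 422 CPM in 1205Lu-R (-0.85, SE 0.03, adjusted p = 1.12e-17). The falls did not differ past the threshold (interaction 0.02, SE 0.04, adjusted p = 0.685). When library size alone was used for scaling, the difference was 0.24 and passed the threshold (adjusted p = 9.58e-05).

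The other 21 gamma genes, summed without PCDHGC3, went the opposite way in 451Lu-R. Their sum rose from 16.2 and 19.7 CPM to 38.5 and 39.0 CPM in that line (log2 fold change 1.22, SE 0.09, adjusted p = 2.27e-10) and fell from 31.2 and 36.4 CPM to 26.3 and 24.0 CPM in 1205Lu-R (-0.51, SE 0.09, adjusted p = 3.85e-05). The responses differed by -1.76 (SE 0.13, adjusted p = 2.87e-10). This split was chosen after the values had been seen. Unlike the array totals, it depends on how the quantification software divided reads from the shared constant exons, which was not tested.

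**Figure D3:**
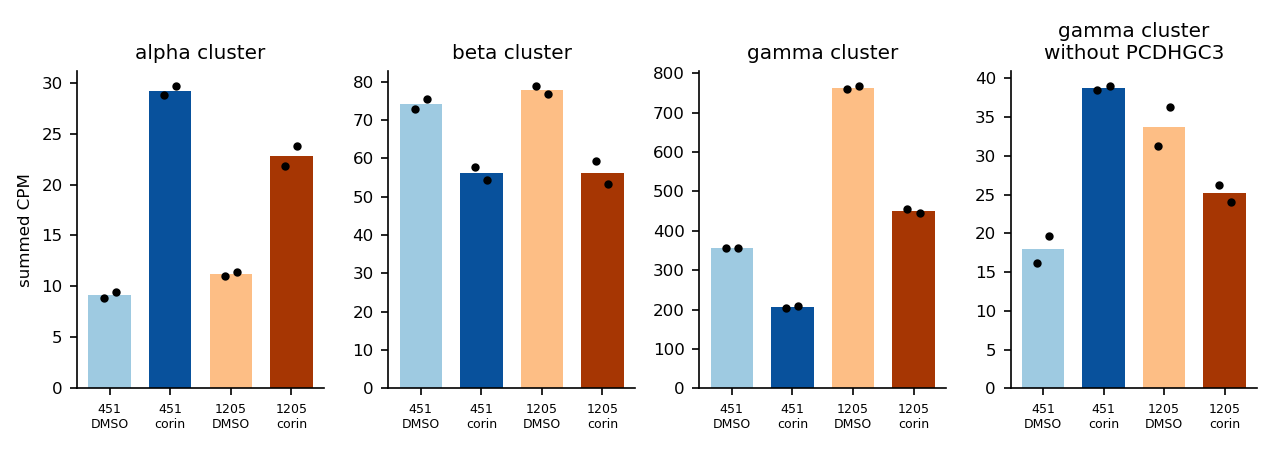
Summed CPM (y axis, linear from 0) of the alpha, beta and gamma clusters and of the gamma cluster without PCDHGC3, by group (x axis). Bars are means of 2 libraries and points the libraries. Alpha is higher and beta and gamma are lower with corin in both lines, whereas gamma without PCDHGC3 is higher with corin in 451Lu-R (38.5 and 39.0 CPM) and lower in 1205Lu-R (26.3 and 24.0 CPM).

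Among alpha genes, PCDHA11 had the most counts with DMSO, taking 48.7% to 51.2% of the array. With corin its share was 19.4% and 23.8% in 451Lu-R, against 29.4% and 35.9% in 1205Lu-R, while genes with hardly a count under DMSO were now counted. The C-type gene PCDHAC1 went from 3.4 and 0 counts to 52 and 67 in 451Lu-R (5.22, SE 0.53, adjusted p = 2.01e-08) and from 1.0 and 1.5 counts to 5 and 10 in 1205Lu-R, where it was not tested. PCDHAC2 rose from 0.131 and 0.724 CPM to 4.19 and 3.44 CPM in 451Lu-R (3.34, SE 0.47, adjusted p = 2.25e-06) and from 2.67 and 2.37 CPM to 5.92 and 3.67 CPM in 1205Lu-R (0.82, SE 0.27, adjusted p = 0.00936). Its response differed between the lines (interaction -2.56, SE 0.62, adjusted p = 0.00164). PCDHA1, at the far end of the array, rose in both lines from at most 1.5 counts to 18 and 16 counts (451Lu-R) or 14 and 20 counts (1205Lu-R).

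All 6 alpha genes tested rose in 451Lu-R, and 5 of 8 rose in 1205Lu-R with none falling, but only 2 in each line were at the filter's level in all 4 libraries, of which 2 and 1 rose. Of all genes tested, 41.3% and 40.4% rose, and of all genes at that level in all 4 libraries 36.6% and 35.1% rose. The number of alpha genes with more than 3 counts went from 7 and 6 to 14 and 13 of 15 in the libraries of 451Lu-R, and from 7 and 6 to 12 and 11 in those of 1205Lu-R. PCDHA2 rested on a single library in 451Lu-R, with 18.4 and 17.2 counts against 71 and 22, and lost its call without the first corin library (0.47, adjusted p = 0.415). PCDHA11 rose from 4.31 and 4.74 to 5.57 and 7.04 CPM in that line (0.56, SE 0.20, adjusted p = 0.0157), a call lost with DESeq2 (adjusted p = 0.150), without the second corin library (0.146) and without the first DMSO library (0.0854). The call on PCDHAC2 in 1205Lu-R was lost without the first corin library (log2 fold change 0.46) or the second DMSO library (0.70) of that line. It was also lost with DESeq2 (adjusted p = 0.0891).

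Beta genes are single-exon genes with no constant exons. The lines used different parts of the array with DMSO, and corin lowered PCDHB16 in 451Lu-R and PCDHB14 and PCDHB12 in 1205Lu-R. PCDHB2 fell in 451Lu-R, but this call was lost with DESeq2 (adjusted p = 0.276) and with all libraries in one edgeR fit (0.0823). PCDHB11 missed the threshold in 1205Lu-R (-0.30, SE 0.15, edgeR adjusted p = 0.0707), though it passed with no filter (0.0444). In 451Lu-R PCDHB16 led with 22.6 and 22.9 CPM and fell to 10.2 and 10.7 CPM with corin (-1.03, SE 0.11, adjusted p = 4.11e-08). In 1205Lu-R PCDHB16 had 1.18 and 0.770 CPM with DMSO and 1.28 and 1.11 CPM with corin. The difference in its response (interaction 1.18, SE 0.40, adjusted p = 0.0194) was not called by DESeq2 (adjusted p = 0.0556), nor by edgeR without the first corin library (0.0971) or the second DMSO library (0.145) of 1205Lu-R. PCDHB14 and PCDHB12 led in 1205Lu-R, and they fell from 24.8 and 24.7 to 18.1 and 15.7 CPM (-0.63, SE 0.10, adjusted p = 7.5e-06) and from 20.3 and 21.2 to 11.1 and 10.4 CPM (-1.02, SE 0.11, adjusted p = 4.25e-08).

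PCDHB14 stood at 4.30 and 5.30 CPM in 451Lu-R with DMSO and 5.99 and 5.68 CPM with corin, and its response differed between the lines (interaction -1.06, SE 0.21, adjusted p = 0.0002). PCDHB5, present in both lines, had 13.2 and 13.8 CPM in 451Lu-R and 6.89 and 5.83 CPM in 1205Lu-R with DMSO. With corin it was 10.6 and 9.60 CPM in 451Lu-R (-0.31, SE 0.13, adjusted p = 0.0351), and 7.19 and 5.48 CPM in 1205Lu-R. The fall in 451Lu-R was not called by DESeq2 (adjusted p = 0.284) or by edgeR with all libraries in one fit (0.0737). It was also lost without the second corin library (-0.24) or the second DMSO library (-0.28). Of 14 beta genes tested in 451Lu-R, 2 rose and 5 fell, where 41.3% of all genes tested rose and 38.6% fell. Of 10 in 1205Lu-R none rose and 4 fell, where 40.4% of all genes rose and 37.8% fell. The shares of beta genes that fell (35.7% and 40.0%) were thus near those of all genes.

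Of the gamma genes beside PCDHGC3, PCDHGA12 rose most in level in 451Lu-R, from 2.25 and 4.27 CPM to 14.7 and 16.5 CPM (2.37, SE 0.19, adjusted p = 8.5e-10). It is the last A-type gene before the C-type genes, and in 1205Lu-R it had at most 6.5 counts. PCDHGA6 was higher with corin in 451Lu-R (0.596 and 0.302 against 1.35 and 1.42 CPM) and lower in 1205Lu-R (3.07 and 3.26 against 2.17 and 0.904 CPM), with an interaction of -2.90 (SE 0.66, adjusted p = 0.000975). PCDHGB7 did likewise at 2.67 to 5.55 CPM (interaction -1.41, SE 0.36, adjusted p = 0.00268). DESeq2 called neither gene in either line alone. The C-type gene PCDHGC5 was a gene of 1205Lu-R, with 5.28 and 7.14 CPM there and at most 6.6 counts in 451Lu-R. It was higher with corin in 1205Lu-R (0.40, SE 0.17, adjusted p = 0.0433). That call was lost with DESeq2 (adjusted p = 0.262), with all libraries in one edgeR fit (0.156) and with no filter (0.0690). It was also lost without the second corin library (log2 fold change 0.29) or the first DMSO library (0.17).

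**Figure D4:**
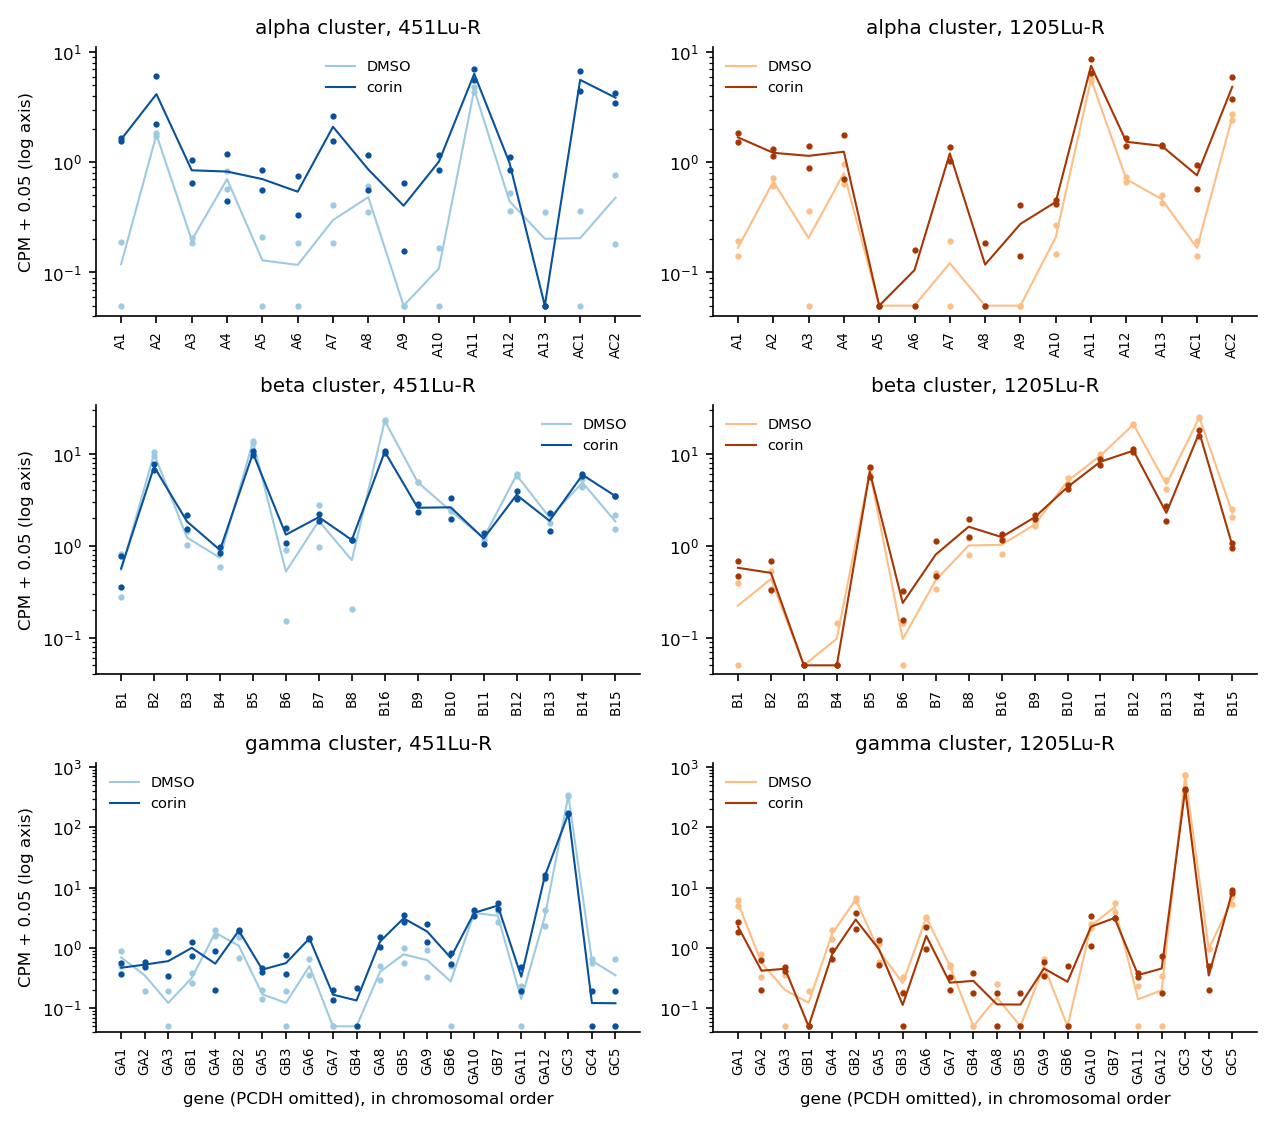
Level of each clustered protocadherin gene as CPM plus 0.05 on a log axis, in chromosomal order within the alpha (top), beta (middle) and gamma (bottom) clusters, for 451Lu-R (left) and 1205Lu-R (right). Lines join group means with DMSO (light) and corin (dark), and points are libraries. The corin line lies above the DMSO line over most of the alpha cluster in both lines, PCDHB16 leads the beta cluster in 451Lu-R and PCDHB14 and PCDHB12 in 1205Lu-R, and PCDHGC3 is the highest gamma gene throughout.

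Levels were compared between members only per kilobase of annotated exon. PCDHGC3 was first in every group, with 62.4 and 31.0 CPM per kilobase in 451Lu-R with DMSO and corin and 134 and 78.4 in 1205Lu-R. With DMSO it was followed in 451Lu-R by PCDH7 (7.24 CPM per kilobase), PCDHB16 (5.93) and CDH2 (5.02), and in 1205Lu-R by CDH13 (22.5), CDH2 (11.81) and PCDH1 (7.96). With corin the next were CDH2 (14.3), PCDH1 (10.3) and PCDH17 (6.21) in 451Lu-R, and PCDH1 (33.4), CDH2 (25.3) and CDH13 (19.7) in 1205Lu-R. The libraries of neighbours in these orders did not overlap. The order behind PCDHGC3 depended on the length used: with the longest transcript, CDH2 and PCDH7 were at 10.7 and 10.6 CPM per kilobase in 451Lu-R with DMSO, with libraries that overlapped, and CDH2 passed PCDH1 in 1205Lu-R with corin (54.1 against 41.1).

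Some 36 members were tested in both lines. Of these, 14 rose in both, against 28.8% of the 13200 genes tested in both lines, and they included 7 non-clustered protocadherins (PCDH1, PCDH9, PCDH10, PCDH12, PCDH17, PCDH18 and PCDH19), 4 classical cadherins (CDH2, CDH6, CDH15 and CDH22) and 3 alpha genes (PCDHA1, PCDHA7 and PCDHAC2). Among them CDH6, CDH15, CDH22, PCDH12, PCDH17, PCDH19, PCDHA1 and PCDHA7 were below the filter's level in every DMSO library. They passed the filter only through the corin libraries and could hardly have come out lower. The same held for PCDH9 and PCDH10 in 1205Lu-R and for PCDHAC2 in 451Lu-R. That leaves CDH2, PCDH1 and PCDH18 at the level in every library of both lines. Another 3 fell in both (28.5% of all genes), all of them clustered (PCDHB12, PCDHGA4 and PCDHGC3). PCDHGA4 reached the filter's level only with DMSO in each line and so could hardly have come out higher. The call on PCDHB12 in 451Lu-R was lost with DESeq2 (adjusted p = 0.158), without the second corin library (0.0803) and without the first DMSO library (0.0597). PCDH7 alone fell in 451Lu-R and rose in 1205Lu-R (4.13% of all genes), while 6 did the reverse (CDH13, CDH24, PCDHB15, PCDHGA6, PCDHGB2 and PCDHGB7), against 5.96% of all genes. Of these, CDH13 and PCDHGA6 were below the filter's level in both DMSO libraries of 451Lu-R, and PCDHGB2 in the first of them. Their rises in that line therefore came from genes at the level throughout only with corin. In 1205Lu-R, PCDHGA6 was below the level in the second corin library. Within either line, CDH24, PCDHGA6 and PCDHGB7 were not called by DESeq2. PCDHB15, PCDHGB2, PCDHGA4 and PCDHA7 were named after their values had been seen. The interaction test over all 8 libraries covered 61 members, of which 4 responded more in the upward direction in 1205Lu-R (22.6% of all genes) and 13 less (27.1%). The estimates for CDH12 (-8.82, adjusted p = 0.0287) and PCDHA13 (5.27, adjusted p = 0.0399) rested on at most 11.2 and 15.3 counts in a library and lost their calls with DESeq2 and without any of several single libraries.

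With DMSO, 1205Lu-R was compared with 451Lu-R. These are the same DMSO libraries that serve as controls for corin, so the comparisons are not independent. Of 61 members tested, 20 were higher (38.2% of all genes) and 17 lower (37.2%) in 1205Lu-R, shares at or below those of all genes. Beside CDH13, PCDHGC3 and CDH2, PCDHB11 was higher in 1205Lu-R (9.81 and 9.17 against 1.23 and 1.10 CPM). Beside CDH19, CDH7 and PCDHB16, PCDHB2 was lower, with 9.47 and 10.3 CPM in 451Lu-R and 0.286 and 0.483 CPM in 1205Lu-R (log2 difference -4.58, SE 0.33, adjusted p = 2.73e-11), and PCDHB3 had 15.0 and 9.4 counts in 451Lu-R and none in 1205Lu-R. Among arrays, the gamma total was higher in 1205Lu-R by 1.22 (SE 0.03) and the alpha and beta totals by 0.42 (SE 0.12) and 0.19 (SE 0.05).

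The proteins that work with cadherins were read from fixed lists. Of 19 catenins and junction partners, 17 were tested in 451Lu-R, of which 13 rose and 1 fell, and 14 in 1205Lu-R, of which 7 rose and 6 fell. The shares over the whole table were 41.3% rising and 38.6% falling for 451Lu-R, 40.4% and 37.8% for 1205Lu-R, and 4 and 1 of the partners reached the filter's level only with corin. CTNNA1, which encodes the alpha-catenin that couples most cadherins to actin, was looked at after its values had been seen. It had 2.85 and 3.12 CPM in 451Lu-R and 629 and 625 CPM in 1205Lu-R with DMSO (log2 difference 7.84, SE 0.07, adjusted p = 1.36e-27), and in 451Lu-R with corin it remained at 3.92 and 3.86 CPM. CTNNA2, the neuronal alpha-catenin, rose in 451Lu-R from 1 and 5 counts to 268 and 253 (6.40, SE 0.27, adjusted p = 1.86e-14) and had at most 2 counts in 1205Lu-R. JUP and CTNND2 had 0 counts in all DMSO libraries and 15 and 18, and 20 and 15, with corin in 451Lu-R. CTNNB1, the beta-catenin that binds cadherin tails, was at 851 and 862 CPM in 451Lu-R with DMSO and rose with corin (0.51, SE 0.02), and fell in 1205Lu-R (-0.23, SE 0.03).

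Most listed regulators of clustered protocadherin promoters fell. Of 14 genes for cohesin, its loaders and unloaders, CTCF and repressors of the arrays, 12 fell and none rose in 451Lu-R, and 13 fell and 1 rose in 1205Lu-R. All 14 were at the filter's level in every library, and 42.9% of all such genes fell in either line. The cohesin subunit STAG2 fell from 93.4 and 87.9 to 25.7 and 28.1 CPM in 451Lu-R (-1.66, SE 0.07) and from 101 and 105 to 35.9 and 37.3 CPM in 1205Lu-R (-1.56, SE 0.05). STAG1 fell by 0.99 (SE 0.07) and 1.46 (SE 0.06) on the log2 scale, SETDB1 by 1.23 (SE 0.09) and 0.75 (SE 0.12), and CTCF by 0.81 (SE 0.06) and 0.47 (SE 0.05). The exception was the DNA methyltransferase DNMT3B, at 1.99 and 1.51 CPM with DMSO and 5.67 and 5.04 CPM with corin in 1205Lu-R (1.53, SE 0.27). Any part of these shifts in those of the arrays was not tested.

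The transcription factors known to repress CDH1 changed in different ways in the lines. SNAI1 rose in both, from 16.5 and 16.1 to 75.9 and 73.0 CPM in 451Lu-R (2.29, SE 0.08) and from 28.2 and 31.6 to 197 and 195 CPM in 1205Lu-R (2.64, SE 0.05). SNAI2 fell in 451Lu-R from 233 and 232 to 64.7 and 64.2 CPM (-1.75, SE 0.04) and rose in 1205Lu-R from 47.4 and 45.3 to 112 and 118 CPM (1.24, SE 0.05), with an interaction of 2.95 (SE 0.06, adjusted p = 2.95e-19). ZEB2 fell in 451Lu-R (-1.95, SE 0.06) and rose in 1205Lu-R (0.37, SE 0.12), and TCF4 rose in 451Lu-R (2.28, SE 0.26) and fell in 1205Lu-R (-0.37, SE 0.07). Over the list of 9, 4 of 7 tested rose and 3 fell in 451Lu-R, and 3 of 8 rose and 3 fell in 1205Lu-R. Every repressor tested was at the filter's level in all 4 libraries of its line. For the whole table at that level, 36.6% were called higher and 42.9% lower with 451Lu-R, against 35.1% and 42.9% with 1205Lu-R. Any difference between this list and other genes was not tested.

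Relatives outside the naming rule (FAT, DCHS, CELSR, calsyntenin, desmosomal cadherin and RET genes, 25 in all) mostly rose, with 12 of 15 tested rising and none falling in 451Lu-R and 9 of 13 rising and 1 falling in 1205Lu-R, where 41.3% and 40.4% of all genes rose. Of those tested, 6 and 2 reached the filter's level only with corin, and of the 8 and 11 at that level in all 4 libraries, 6 and 7 rose. The receptor tyrosine kinase RET, which carries cadherin-like repeats, rose in 451Lu-R from 1.38 and 0.931 to 37.2 and 35.8 CPM (5.05, SE 0.16, adjusted p = 2.27e-16) and had 0 counts in all 1205Lu-R libraries. DCHS2 went from 2 and 1 to 150 and 122 counts in 451Lu-R and from 41 and 41 to 98 and 104 in 1205Lu-R (1.30, SE 0.18). CLSTN2 went from 3 and 1.9 to 76 and 69.3 counts and from 1 and 1 to 11 and 13.8. The desmosomal gene DSC1 went from 0 and 1 counts to 14.1 and 12 in 451Lu-R and was not counted in 1205Lu-R.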

How the data were processed

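RNA from 451Lu-R and 1205Lu-R cells with DMSO or corin was sequenced in 2 libraries per group. The authors trimmed reads with Trimmomatic and quantified them with Salmon against GENCODE v32 (tool versions and strandedness not given in the sources used here), and deposited estimated counts per gene, which are expected counts, not normalized. Deposited tables on PLX4032 hold only the authors' own comparisons (log2 fold changes and adjusted p-values) and were not used. Counts were rounded and tested with edgeR 4.0.16 in R 4.3.3 (filterByExpr, TMM, quasi-likelihood test, Benjamini-Hochberg adjustment over all genes tested). Each line was fitted alone, and the difference in response and the DMSO comparison used all 8 libraries. The fit was tested on simulated data. Symbols and coordinates came from GENCODE 44 on GRCh38. Members named with values were 6 fixed cadherins, the largest changes at a mean of at least 1 CPM without overlap of groups, and the leading genes of each cluster. Members and lists were chosen with earlier results of these data known. Samples of the same replicate number did not deviate together. Alternatives were DESeq2 1.42.0, library size scaling, no filter, all libraries in one fit, a replicate block, leaving out each library and a stricter call.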

Additional observations from a re-analysis of the deposited data

Results flagged for a closer look

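Each value here is the log2 corin response in 1205Lu-R minus that in 451Lu-R, and each passed the test of that difference over all 8 libraries (edgeR, adjusted p under 0.05). Among cadherins the differences were -4.04 for CDH13, -0.80 for CDH24 and -0.63 for CDH2. Among non-clustered protocadherins they were 2.82 for PCDH10 and 2.74 for PCDH7, while the difference for PCDH1 was -1.10. Among clustered genes the differences were -2.90 for PCDHGA6, -2.56 for PCDHAC2, -1.41 for PCDHGB7, -1.06 for PCDHB14 and 1.18 for PCDHB16, the last of which lost its call with DESeq2 and without either of 2 libraries of 1205Lu-R. The alpha total differed by -0.85, the beta total by -0.285, the gamma total by -0.19 and the gamma total without PCDHGC3 by -1.76. For CDH12 (-8.82) and PCDHA13 (5.27), whose groups include libraries with no counts, the estimates depend on the prior count.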

How the results depend on the processing

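In 451Lu-R, 34 members rose and 9 fell, against 25 and 4 with DESeq2 and 20 and 0 with the call of at least 4-fold at an adjusted p under 0.001. In 1205Lu-R, 12 members fell, against 7 with DESeq2 and 0 with the stricter call. For the difference between lines, 4 members were higher, against 2 with DESeq2 and between 2 and 5 when a library was left out, with 2 without the first corin library of 1205Lu-R and without its second DMSO library. Leaving out a library gave 26 to 34 members rising in 451Lu-R and 15 to 18 in 1205Lu-R. The gamma total in 451Lu-R reversed from -0.69 to 1.22 once PCDHGC3 was set apart, an alternative chosen after seeing the data. That alternative depends on how reads from the shared exons were divided. Replicate numbers did not pair the samples (correlation of deviations -0.0175 for 451Lu-R, -0.00605 for 1205Lu-R), and a replicate block gave 33 rising and 9 falling members for 451Lu-R, 19 and 12 for 1205Lu-R. Genes with fewer than about 10 counts in every library could not be tested at this depth. For named members, 1647 values under alternatives kept their side of the threshold and, where called, their direction, 81 lost their call and 12 gained one. Values called in neither setting were counted as kept whatever their direction.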
